A study of Drosophila melanogaster with 4 samples.

Results

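Genes for secreted proteins of the head fat body were examined in RNA from nuclei of Drosophila melanogaster heads. They were chosen by symbol as Yp1, Yp2, Yp3, apolpp, Lsp2, fit, to and tobi, which are 8 of the 17137 genes in the deposited count table. Nuclei tagged with UNC84-GFP, which sits in the nuclear envelope, were pulled down (the INTACT method) from pooled heads of untreated flies aged 10 days. In the VAChT:VGlut split-Gal4/UAS-UNC84 genotype the tag was driven jointly by the promoters of the vesicular acetylcholine transporter and the vesicular glutamate transporter. In the VAChT:VGAT split-Gal4/UAS-UNC84 genotype the partner of VAChT was the vesicular GABA transporter. Each genotype had 2 poly(A) RNA libraries, with 2023040 and 2556988 counts in VAChT:VGlut and 1937871 and 1490390 in VAChT:VGAT. The labels call the material neuronal nuclei and do not give the sex of the flies, nor whether a genotype's libraries were collected separately, so the p-values measure only the spread between these libraries, which may be technical.

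The insect fat body combines functions that vertebrates divide between liver and adipose tissue, and part of it surrounds the brain inside the head capsule. It loads the haemolymph with lipoproteins, storage proteins and, in females, yolk proteins that oocytes take up. Its output changes with sex, feeding, juvenile hormone, insulin and adipokinetic hormone. Several head fat body products differ between the sexes, and some of them act back on feeding and courtship.

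RNA of Yp1, Yp2, Yp3 and apolpp was abundant in the neuronal pull-downs, that of the other 4 genes much less so, and 6 of the 8 genes fell in VAChT:VGlut. These were Yp1, Yp2, Yp3, apolpp, Lsp2 and fit, with fold changes between 0.632 and 0.913 of the VAChT:VGAT level. No member rose, and to and tobi did not pass the test. Of all 8246 genes tested, 5.54% were called lower in VAChT:VGlut (edgeR quasi-likelihood test, Benjamini-Hochberg adjusted p under 0.05), 6.22% were called higher, and 11.8% in either direction (513 higher and 457 lower). With library size alone as the scaling, the calls over all genes split into 398 higher and 575 lower, and the same number of members, 6, were called. The median log2 fold change of the 8 members was -0.30, against -0.0086 over all genes tested. Power differs with abundance. Among the 104 genes with a mean of at least 1000 CPM (counts per 1000000), the class of Yp1, Yp2, Yp3 and apolpp, 16.3% were called lower and 58.7% higher. Among the 5144 genes of 10 to 110 CPM, the class of the other 4 members, 3.99% were called lower and 2.04% higher. None of the 8 members passed a test against a 1.5-fold change. With the coefficient of biological variation set to 0.1, in place of the 2.18% estimated from these libraries, 1 member (fit) passed, and at 0.2 none did.

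**Figure D1:**
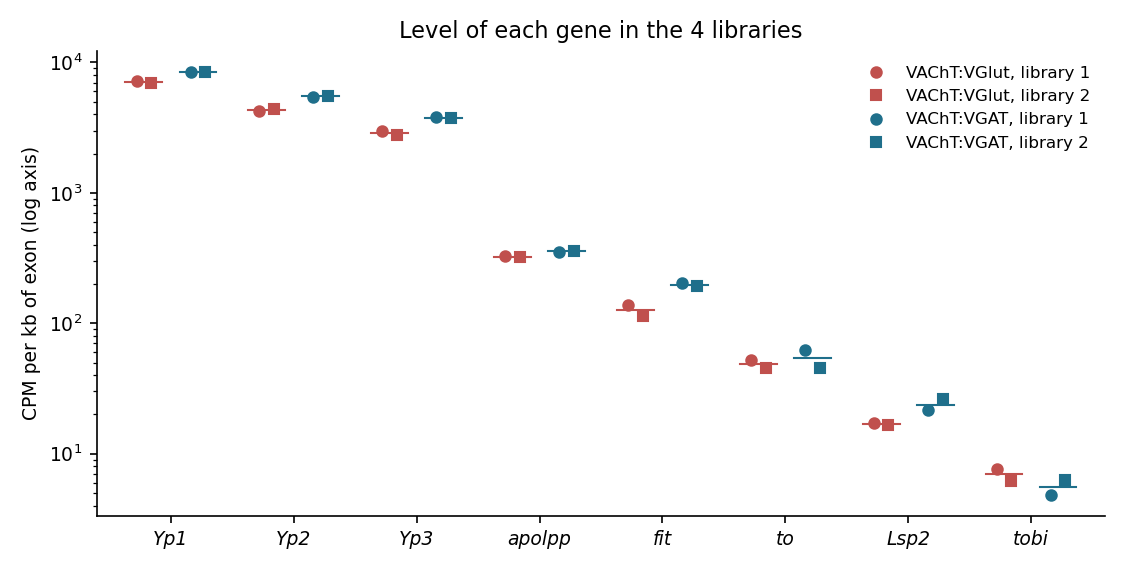
Level of each of the 8 genes in each library, as CPM per kilobase of exon on a log axis. Circles and squares are the first and second library of a genotype and short lines are genotype means. The order from Yp1 to tobi was the same in all 4 libraries.

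Per kilobase of exon, the members spanned a wide range of levels. The order Yp1, Yp2, Yp3, apolpp, fit, to, Lsp2, tobi held in all 4 libraries, and neighbours in it differed by at least 1.43-fold within each library. Yp1 had 7059 ± 172 CPM per kb in VAChT:VGlut, against 8445 ± 9.27 CPM per kb in VAChT:VGAT (SD, n = 2 each). At the other end, tobi had 6.94 ± 0.998 CPM per kb in VAChT:VGlut, against 5.60 ± 1.04 CPM per kb in VAChT:VGAT (SD, n = 2 each). By raw counts Yp1 was the 4th most abundant gene in both VAChT:VGlut libraries and the most abundant (rank 1) in both VAChT:VGAT libraries. Together the 8 genes took 2.76% (95% exact binomial interval 2.73% to 2.78%) and 2.70% (2.68% to 2.72%) of the counts in VAChT:VGlut. In VAChT:VGAT they took 3.42% (3.39% to 3.45%) and 3.42% (3.39% to 3.45%). These intervals cover counting error only.

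The yolk protein genes dominated this RNA. Yp1 (FBgn0004045; dm6 chromosome X, 10053811 to 10055498, plus strand) and Yp2 (FBgn0005391; X, 10050951 to 10052636, minus strand) are neighbours transcribed away from each other, with 1174 bases between them. Yp3 (FBgn0004047; X, 13759546 to 13761547, plus strand) lies elsewhere on the X. All encode lipase-related proteins that are stored in the egg as yolk, and besides the female fat body the follicle cells of the ovary make them.

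Yp1 had 11567 and 11176 CPM in VAChT:VGlut, against 13616 and 13595 CPM in VAChT:VGAT. Both VAChT:VGlut libraries lay below both VAChT:VGAT libraries, as they did for 25.6% of all genes tested. The log2 fold change was -0.26 (SE 0.02, edgeR adjusted p = 2.55e-15), and -0.17 after a trend of fold change with exonic length was removed. Yp2 had 6868 and 7053 CPM in VAChT:VGlut, against 8842 and 8901 CPM in VAChT:VGAT. The groups again did not overlap, and the log2 fold change was -0.35 (SE 0.02, edgeR adjusted p = 5.95e-20). Yp3 had 5549 and 5173 CPM in VAChT:VGlut, against 7066 and 6998 CPM in VAChT:VGAT. Its log2 fold change was -0.39 (SE 0.03, edgeR adjusted p = 2.63e-20), and its groups did not overlap. Without VAChT:VGlut replicate 2 it was -0.34, against -0.37 for Yp2, so the order of these genes by fold change rests on that library.

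The yolk protein genes did not keep exactly the same proportions. Per 100 Yp1 counts there were 59.4 and 63.1 Yp2 counts in VAChT:VGlut, and 64.9 and 65.5 in VAChT:VGAT. Yp3 gave 48.0 and 46.3 counts per 100 Yp1 counts in VAChT:VGlut, and 51.9 and 51.5 in VAChT:VGAT. Neither ratio overlapped between genotypes, each with an exact two-sided permutation p = 0.333, which is the smallest that 2 libraries against 2 allow. Yp3 per 100 Yp2 counts did overlap, with 80.8 and 73.3 in VAChT:VGlut and 79.9 and 78.6 in VAChT:VGAT. Part of this movement lay between replicates. In an exact binomial test of the reads of the VAChT:VGlut libraries against each other, Yp1 (adjusted p = 0.00121) and Yp3 (adjusted p = 1.32e-06) differed by more than counting noise. These were the 2 of 16 such tests, 8 genes in each genotype, that passed the threshold.

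Because follicle cells also make yolk proteins, ovary genes were examined beside them. Of 14 ovary genes matched, 5 had no count in any library: the eggshell genes Vm26Aa, Vm26Ab, Cp36, Cp38 and psd, which follicle cells make. The list summed to 2.01 and 2.38 CPM in VAChT:VGlut and to 32.2 and 33.3 CPM in VAChT:VGAT. It was led by the female germline thioredoxin gene dhd, with 0 and 1 counts in VAChT:VGlut and 30 and 20 in VAChT:VGAT. The yolk receptor gene yl, which acts in the oocyte, had 0 and 0 counts in VAChT:VGlut and 2 and 10 in VAChT:VGAT. The part of ovary RNA in the yolk protein difference was not tested beyond these values.

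apolpp (FBgn0087002; chromosome 4, 1060969 to 1077273, plus strand) encodes the precursor of the apolipophorins, the scaffold of lipophorin, which carries lipid through the haemolymph. It had 3830 and 3807 CPM in VAChT:VGlut, against 4142 and 4226 CPM in VAChT:VGAT. The groups did not overlap, and the difference was small (log2 fold change -0.13, SE 0.03, edgeR adjusted p = 0.000157). After the length trend was removed it was -0.29, larger than those of Yp1 (-0.17) and Yp2 (-0.26) in the same fit. That of Yp3 there was larger still (-0.32). apolpp is a long gene with 11766 exon bases. Yolk protein counts per apolpp count were 6.26 and 6.15 in VAChT:VGlut and 7.13 and 6.98 in VAChT:VGAT (exact permutation p = 0.333, the smallest possible here).

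Lsp2 (FBgn0002565; 3L, 12129393 to 12131869, plus strand) encodes a hexamerin, a storage protein of the late larva that adult fat body also makes. It had 42.7 and 41.3 CPM in VAChT:VGlut, against 53.2 and 64.6 CPM in VAChT:VGAT, and the groups did not overlap. The log2 fold change was -0.47 (SE 0.16, edgeR adjusted p = 0.0364). This call was the least stable of the 6. It was lost without a filter on low counts (adjusted p = 0.0513), after the length trend was removed (0.0718) and in DESeq2 without independent filtering (0.557), although the log2 fold changes there were -0.46, -0.44 and -0.48. It was also lost without either VAChT:VGlut library (adjusted p = 0.101 without replicate 1 and 0.228 without replicate 2) and without VAChT:VGAT replicate 2 (0.309), where the log2 fold changes were -0.49, -0.45 and -0.34.

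fit (FBgn0038914; 3R, 21883924 to 21884454, minus strand), named for its female-specific expression independent of transformer, encodes a small secreted protein that signals protein satiety in females. It had 73.9 and 60.4 CPM in VAChT:VGlut, against 107 and 102 CPM in VAChT:VGAT. Both VAChT:VGlut libraries were lower, and the fold change was the largest among the members (log2 fold change -0.66, 95% interval -0.91 to -0.42, SE 0.12, edgeR adjusted p = 4.35e-05). After the length trend was removed it was -0.45, against -0.44 for Lsp2. Without VAChT:VGAT replicate 1 it was -0.63, against -0.62 for Lsp2, and without VAChT:VGlut replicate 2 it was -0.51. fit shares 32 exon bases on its own strand with asRNA:CR45046, and reads in these bases cannot be assigned. That RNA had 176 and 199 counts in VAChT:VGlut and 181 and 139 in VAChT:VGAT (log2 fold change -0.15, edgeR adjusted p = 0.508).

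to, or takeout (FBgn0039298; 3R, 25240180 to 25241668, plus strand), encodes a secreted carrier-like protein that links the clock to feeding and, in male head fat body, supports courtship. It had 65.3 and 56.4 CPM in VAChT:VGlut, against 77.8 and 57.3 CPM in VAChT:VGAT. The groups overlapped, and the VAChT:VGAT libraries lay further apart than the VAChT:VGlut libraries. The log2 fold change of -0.18 had a 95% interval of -0.47 to 0.10 (SE 0.14, edgeR adjusted p = 0.505), so a fall as large as that of Yp3 lay inside it. There were 1.13 and 1.07 fit counts per to count in VAChT:VGlut, and 1.38 and 1.79 in VAChT:VGAT.

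tobi (FBgn0261575; 3R, 25344761 to 25346921, minus strand), the target of brain insulin, encodes an alpha-glucosidase of the fat body that responds to diet through insulin-like and adipokinetic hormones. It had 32 and 33 counts in VAChT:VGlut and 20 and 20 in VAChT:VGAT, or 16.1 and 13.1 CPM against 10.2 and 13.3 CPM. The groups overlapped. The log2 fold change was 0.32 with a 95% interval of -0.29 to 0.92 (SE 0.30, edgeR adjusted p = 0.605), so neither a rise nor a fall could be shown. Without each library in turn it ranged from 0.12 (without VAChT:VGAT replicate 1) to 0.50 (without VAChT:VGAT replicate 2).

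**Figure D2:**
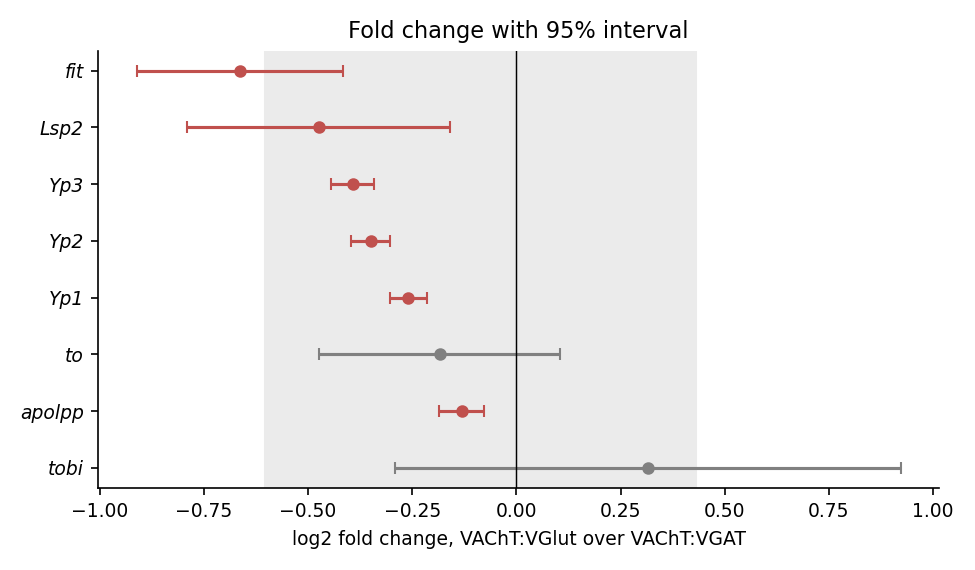
Log2 fold change of VAChT:VGlut over VAChT:VGAT with its 95% interval for each gene. Red marks an edgeR adjusted p under 0.05, grey the others, and the band spans the 5th to 95th percentile of all tested genes (-0.60 to 0.43). fit lies beyond the band, while the other 7 genes lie inside it.

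Counts on the strand opposite to the most overlapped members were at or near 0. The antisense gene asRNA:CR45601 overlaps 54.3% of the exon bases of Yp1 and had 0 and 0 counts in VAChT:VGlut and 1 and 1 in VAChT:VGAT. The antisense gene asRNA:CR11538 overlaps 84.6% of those of Lsp2 and had 0 counts in every library.

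Markers of other cells moved between the genotypes as well. Over all genes tested, 6.22% were called higher in VAChT:VGlut and 5.54% lower. Among genes of at least 1000 CPM, a class that holds several neuron and photoreceptor markers, 58.7% were called higher and 16.3% lower. All 6 neuron markers rose in VAChT:VGlut (median log2 fold change 0.23, summed level 9446 to 9659 CPM against 8047 to 8126 CPM in VAChT:VGAT). Of the photoreceptor markers 7 of 12 rose and 2 fell. Several of the 12, among them the 2 that fell (Rh3 and Rh5), lie below 1000 CPM. The shares of that class therefore do not apply to the whole list. Of 8 tested muscle markers 7 rose. Of 9 glial markers 5 fell, and of 8 hemocyte markers 4 of 6 tested fell (summed level 462 to 472 CPM in VAChT:VGlut, 550 to 561 CPM in VAChT:VGAT). The oenocyte list summed to 7.54 to 7.55 CPM in VAChT:VGlut and to 7.17 to 7.33 CPM in VAChT:VGAT. The gut list summed to 0.503 to 1.19 CPM in VAChT:VGlut and to 1.33 to 1.54 CPM in VAChT:VGAT, and the testis and accessory gland list to 0.503 to 0.795 CPM in VAChT:VGlut and to 0 CPM in VAChT:VGAT. roX1, an RNA of male dosage compensation, had 1706 and 1735 CPM in VAChT:VGlut and 1553 and 1538 CPM in VAChT:VGAT (log2 fold change 0.16, edgeR adjusted p = 0.000494). The median log2 fold change of genes of at least 1000 CPM, as roX1 is, was 0.13. roX2 had 56.3 and 51.6 CPM in VAChT:VGlut, against 49.1 and 49.3 CPM in VAChT:VGAT (edgeR adjusted p = 0.703). The part of these cells or of sex in the members' differences was not tested, and in bulk RNA fewer cells of a type and less RNA per cell cannot be told apart. All 4 libraries are pull-downs, so the part of the RNA that came from untagged cells was not measured, nor whether it differed between genotypes.

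On a list of 12 other fat body markers, 11 were tested, 3 fell (Nplp2, FASN1 and Lsd-1) and none rose, where 5.54% of all genes tested fell. Among genes of at least 1000 CPM, as Nplp2 and FASN1 are, 16.3% fell. These markers also belong to the pathway lists below, so the same 3 calls are counted there again. The median log2 fold change of the list was -0.12. Their summed level was 3104 and 2992 CPM in VAChT:VGlut and 3458 and 3432 CPM in VAChT:VGAT, and Amyrel was at 0 counts. The GATA factor gene srp, a regulator of fat body genes, had 54.3 and 51.3 CPM in VAChT:VGlut and 49.1 and 55.3 CPM in VAChT:VGAT (log2 fold change 0.02, edgeR adjusted p = 0.961). Yolk protein counts per count of this list were 7.73 and 7.82 in VAChT:VGlut, and 8.54 and 8.59 in VAChT:VGAT. apolpp per count of the list was 1.23 and 1.27 in VAChT:VGlut and 1.20 and 1.23 in VAChT:VGAT.

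Of 8 partners in the handling of yolk and lipoprotein, 7 were tested, 1 fell and none rose (median -0.13). With 11.8% of all genes called in either direction, this count says nothing particular about the list. The gene that fell was Nplp2, which encodes a secreted haemolymph protein, with 1212 and 1135 CPM in VAChT:VGlut, against 1426 and 1398 CPM in VAChT:VGAT (log2 fold change -0.27, edgeR adjusted p = 4.4e-08). The lipophorin receptor genes LpR1 and LpR2 had log2 fold changes of -0.19 and 0.07 (edgeR adjusted p = 0.0556 and 0.683). Of 5 larval storage and fat body protein genes, only Lsp1beta was tested, and it was not called (log2 fold change -0.75, edgeR adjusted p = 0.213).

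Several relatives of takeout fell in VAChT:VGlut. The family shares a domain related to juvenile hormone-binding proteins of moths. Of 17 listed relatives 9 were tested, 5 fell and none rose, with a median log2 fold change of -0.48. Of all genes tested, 5.54% were called lower and 6.22% higher. CG5867 had 70.4 and 53.6 CPM in VAChT:VGlut, against 125 and 119 CPM in VAChT:VGAT (95% interval of the log2 fold change -1.25 to -0.75, edgeR adjusted p = 1.77e-09). CG14661 had 108 and 99.7 CPM in VAChT:VGlut, against 198 and 170 CPM in VAChT:VGAT (-0.84, edgeR adjusted p = 1.27e-10). CG1124 and CG2016 fell by 0.76 and 0.29 on the log2 scale, and so did CG5945, by 0.48. Both VAChT:VGlut libraries lay below both VAChT:VGAT libraries in these 5 genes, which were picked by their calls, and also in CG13618 and CG31207, which were not called. The same held for 25.6% of all genes tested. The difference between their fold changes and that of to was not tested.

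**Figure D3:**
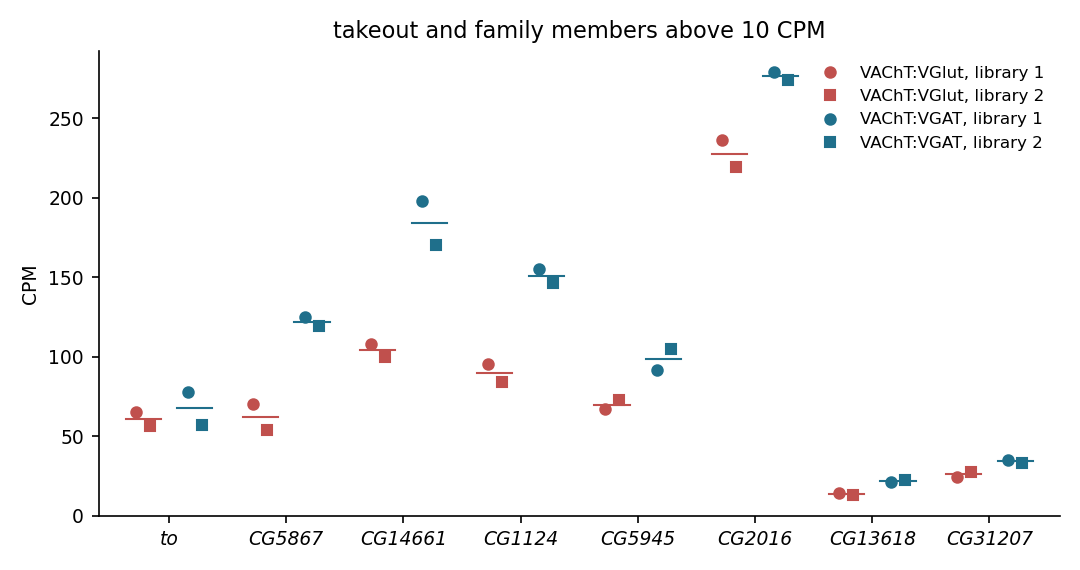
CPM of to and of its relatives with a mean above 10 CPM, in each library. Circles and squares are the first and second library of a genotype and lines are genotype means. CG5867, CG14661, CG1124, CG5945 and CG2016 are lower in both VAChT:VGlut libraries, as are the uncalled CG13618 and CG31207, while the libraries of to overlap.

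Of 20 genes on a list of sex-specific and hormonal regulators, not all of them fat body genes, 18 were tested. In this list 2 rose and 1 fell (median -0.03), near the 11.8% called among all genes. The gene that fell was Cyp4d21 (sxe1), a cytochrome P450 enriched in male head fat body, with 44.2 and 50.5 CPM in VAChT:VGlut and 69.6 and 71.2 CPM in VAChT:VGAT (log2 fold change -0.56, edgeR adjusted p = 0.00423). fru and Sxl, sex-determination genes with broad neuronal expression, rose by 0.33 and 0.17 on the log2 scale (edgeR adjusted p = 0.000209 and 0.0095). dsx, whose protein binds the enhancer shared by Yp1 and Yp2, had a log2 fold change of 0.05 (edgeR adjusted p = 0.883).

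Among nutrient hormones and sensors, 13 of 15 were tested, 3 fell and 1 rose (median -0.02), where 5.54% of all genes tested fell and 6.22% rose. The insulin-like peptide genes of the brain fell: Ilp2 had 91.5 and 82.6 CPM in VAChT:VGlut and 132 and 114 CPM in VAChT:VGAT (log2 fold change -0.52, edgeR adjusted p = 0.000394). Ilp3 and Ilp5 fell by 0.63 and 0.70 on the log2 scale (edgeR adjusted p = 0.0189 and 0.045). The insulin receptor gene InR rose (log2 fold change 0.41, edgeR adjusted p = 0.00827). tobi, downstream of these peptides, was not called.

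Of 13 genes for alpha-glucosidases and amylases, the enzyme class of tobi, 5 were tested and 1 fell, with a median of -0.69. Of all genes tested 5.54% fell. The median is the value of the uncalled Mal-B1 (edgeR adjusted p = 0.272), with 11 and 19 counts in VAChT:VGlut and 18 and 19 in VAChT:VGAT. Mal-B2 had 97.0 and 91.4 CPM in VAChT:VGlut and 158 and 172 CPM in VAChT:VGAT (log2 fold change -0.81, edgeR adjusted p = 1.52e-09). Genes of fat body metabolism moved in both directions, with 20 of 21 tested, 4 called lower, 2 called higher and a median of -0.07. The shares over all genes tested were 5.54% lower and 6.22% higher. The genes that fell were Lsd-1, a lipid droplet perilipin (-0.48), Hn, phenylalanine hydroxylase (-0.32), Treh, trehalase (-0.24) and FASN1, fatty acid synthase (-0.12). GlyP, glycogen phosphorylase (0.32), and the desaturase gene Desat1 (0.12) rose.

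**Figure D4:**
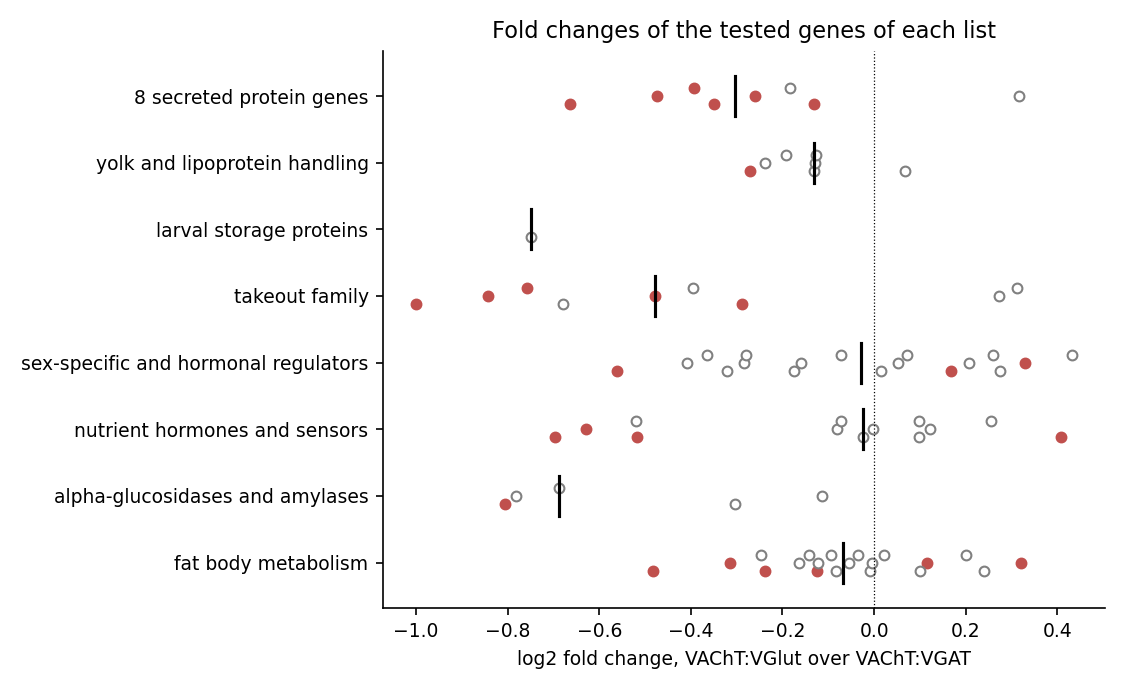
Log2 fold changes of the tested genes on each list, with the 8 secreted protein genes on top. Filled red points passed the edgeR threshold, open points did not, and black lines are medians. Medians lie below -0.4 for the takeout family (-0.48), the alpha-glucosidases and amylases (-0.69) and the lone storage protein gene, and near 0 for the regulators and the nutrient hormones. Of the 5 alpha-glucosidase and amylase genes tested only 1 was called, and the lone storage protein gene was not called.

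The 5 genes closest to the median profile of the 8 members over the 4 libraries were Idh, CG31705, RpS18, RpL34b and Rh2. Likeness was the root mean square difference of centred log2 values among 3575 other genes of at least 50 CPM, and it ranged from 0.00688 for Idh to 0.0182 for Rh2. Idh had 280 and 271 CPM in VAChT:VGlut and 340 and 338 CPM in VAChT:VGAT. With 4 libraries such likeness says little more than that these genes had fold changes near -0.30.

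**Figure D5:**
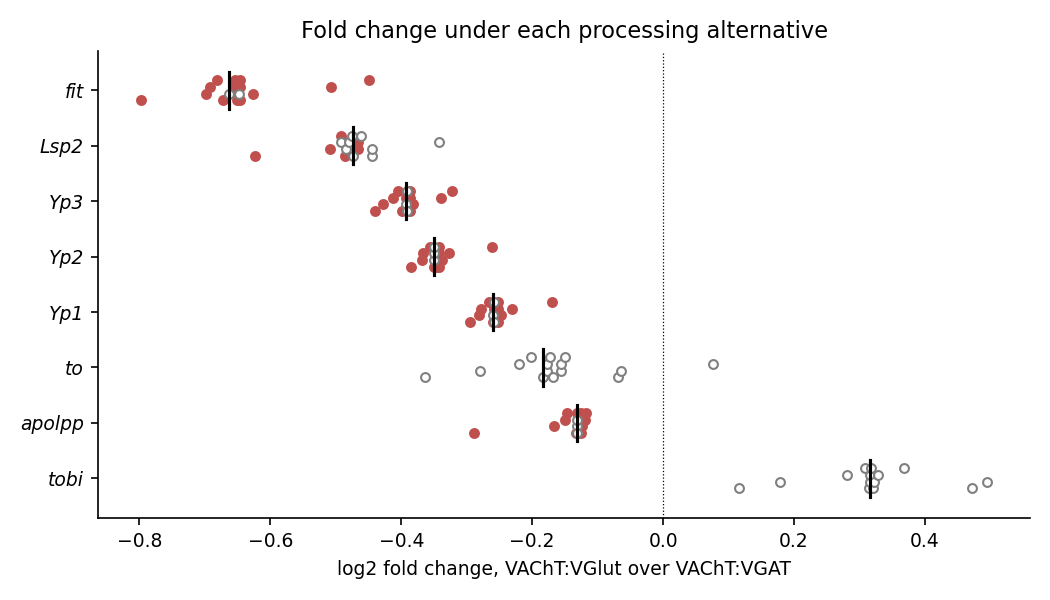
Log2 fold change of each gene under each alternative processing (points; red where the adjusted p stayed under 0.05, open where it did not) beside the reported value (black line). Each gene stays on its side of 0 under the alternatives tried, except to, which is 0.08 without VAChT:VGAT replicate 1.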

How the data were processed

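The authors deposited raw counts per gene for 4 libraries. Per the file headers these counts are read pairs on the reverse strand over exons of the dm6 refGene annotation (featureCounts 1.5.1). The submitters' processing notes also name fastp, STAR and DESeq2. The exonic length in the deposited table is in bases. Spans of all 8 members matched the Ensembl BDGP6 annotation. Of 17137 genes, 8246 passed filterByExpr of edgeR 4.0.16 (R 4.3.3; minimum count 10, minimum total 15), among them all 8 members. Genotypes were compared by quasi-likelihood in edgeR with TMM scaling (factors 0.988 to 1.01), genotype as the only term and Benjamini-Hochberg adjustment over all tested genes. CPM are counts per 1000000 of the TMM-scaled total of the tested genes. The total counts of 1490390 to 2556988 set a floor of 3 counts, or 1.17 to 2.01 CPM. Alternatives used limma 3.58.1 and DESeq2 1.42.0. The fits were also run on counts simulated with the dispersion estimated from these libraries. Such counts cannot show whether that dispersion covers biological variation.

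The members and lists were chosen with earlier results of these data known. The genes named were all members, up to 4 called genes with the smallest p of each pathway list, the most abundant markers and the 5 nearest profiles. CG5945, Desat1, LpR1, LpR2, dsx, srp, Lsp1beta and yl were singled out after their values were seen. So were Mal-B1, CG13618, CG31207, the eggshell genes and the abundance classes. tsx was matched to Obp99b, desatF to Fad2, and dec-1 was not matched. Sequences and promoter motifs were not analysed here.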

Additional observations from a re-analysis of the deposited data

How the results depend on the processing

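The count of 970 called genes was 373 in DESeq2, 318 in DESeq2 without independent filtering, 46 in a test against a 1.5-fold change, 186 and 24 with biological variation fixed at 0.1 and 0.2 (coefficient), and 620 with the length trend removed. It ranged from 513 to 738 without each library, the lowest being without VAChT:VGlut replicate 2 (513) and VAChT:VGAT replicate 1 (612). The 6 called members became 0, 1 and 0 under the 1.5-fold test and the 2 fixed variations, and 5 to 6 without each library. Of 117 tested genes of the pathway and marker lists pooled, 53 were called, 26 higher and 27 lower, where 11.8% of all genes tested were called. These 53 became 29 and 24 in DESeq2, and 2, 10 and 1 under the 1.5-fold test and the 2 fixed variations. Apart from these settings and the calls of Lsp2, each member stayed on its side of the threshold. DESeq2 with independent filtering gave no adjusted p for Lsp2, to and tobi, and tobi had too few counts for the filter at a mean of 50. The direction of to, which was not called, reversed without VAChT:VGAT replicate 1, its log2 fold changes without each library ranging from -0.36 to 0.077. Leaving out a library leaves a lone library, which is assumed to vary like the other genotype. The replicate block gave 1049 genes and 6 members. Same-numbered libraries had deviations correlated at -0.029. Replicates differed little beyond counting noise (chi-square per degree of freedom 1.22 in VAChT:VGlut and 1.19 in VAChT:VGAT). This correlation therefore cannot tell whether same-numbered libraries were collected or prepared together. The cause of the losses was not tested. The fewest counts were those of tobi, 20 to 33 in a library, with the widest interval.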
